A study of Homo sapiens with 6 samples.

Results

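The IFIT and IFITM genes encode families of interferon-induced antiviral proteins. Their RNA levels were examined in COV434 cells with and without reexpression of BRG1. The rule took 8 genes by symbol from the 19899 genes of the expression table. These were 5 IFIT genes (IFIT1, IFIT1B, IFIT2, IFIT3 and IFIT5) and 3 IFITM genes (IFITM1, IFITM2 and IFITM3). The genes were chosen by earlier results of the same BRG1 against Control comparison, so their values in that comparison are given as a description without a test. All 8 symbols were found in the table, and IFIT1B was the only member without a usable count.

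COV434 is a long-established line of ovarian cancer cells, which the study counts among its SCCOHT lines. SCCOHT is a rare small cell cancer of the ovary with raised blood calcium. BRG1, the product of SMARCA4, drives the SWI/SNF complex, which moves nucleosomes with energy from ATP, and is missing in that cancer. Cells received a BRG1 expression plasmid (PBJ5-BRG1) or an empty control plasmid (pCDNA3-neo, beside which the methods also name pCMV-neo) by FuGENE 6 transfection. Each was mixed with the puromycin resistance plasmid pBABE-puro, so both groups carried transfected plasmid DNA. Puromycin at 2 to 3 µg/ml was added after 24 hours and kept for 3 days, and RNA was then sequenced from 3 biological replicates of each group. The 2 expression plasmids have different backbones, and a change between groups cannot be told apart from an effect of the backbone. The samples hold a mixture of cells, so a larger share of cells with a transcript cannot be told apart from more transcript per cell.

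IFIT proteins are built from tetratricopeptide repeats and bind RNA. IFIT1 recognises RNA ends that lack the methylation of host caps and blocks their translation, IFIT3 binds and stabilises IFIT1, IFIT2 binds both, and IFIT5 binds RNA with an unprotected end. IFITM proteins are small membrane proteins that hinder the fusion of viral and host membranes, IFITM1 mostly at the cell surface and IFITM2 and IFITM3 mostly in endosomes. Type I interferon signals through IFNAR1 and IFNAR2, the kinases JAK1 and TYK2, and a complex with STAT2 and IRF9 that binds the interferon-stimulated response element (ISRE) in the promoters of its targets.

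The members lie in 2 clusters on the GRCh38 build (GENCODE release 44). The IFIT genes are on the plus strand of chromosome 10 in the order IFIT2 (89283694 to 89309271), IFIT3 (89327307 to 89377473), IFIT1B (89378056 to 89385205), IFIT1 (89392546 to 89406487) and IFIT5 (89414568 to 89421605). On chromosome 11, IFITM2 (303655 to 309397) and IFITM1 (310041 to 315272) are on the plus strand and IFITM3 (319676 to 329475) is on the minus strand. The canonical transcript of every member has 2 exons.

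Promoter sequences were searched for the ISRE, the element bound by the complex with STAT2 and IRF9. The motif searched was GAAANNGAAA on both strands, in windows from 250 bases before to 50 bases after each RefSeq start (GRCh38.p14). It was present in 3.57% of the 35116 promoters in the table. Of the members, 6 had an entry, and IFIT2 and IFITM2 did not. The motif occurred 2 times in IFIT1, 2 times in each of the 2 promoters of IFIT3, 3 times in IFIT5, 2 times in IFITM1 and 2 times in IFITM3, and it did not occur in the window of IFIT1B. The windows below are written on the strand of the gene, 5′ to 3′, and capitals mark the motif. They stop where an annotated exon begins, except for IFIT5 and IFITM1, for which 30 bases around the start are given. IFIT1B is included as the member whose letters hold no match.

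IFIT1 (chr10:89392463-89392545, plus strand, bases -160 to -78): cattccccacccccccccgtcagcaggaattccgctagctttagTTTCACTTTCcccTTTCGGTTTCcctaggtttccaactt
IFIT3 (chr10:89327837-89327940, plus strand, bases -160 to -57): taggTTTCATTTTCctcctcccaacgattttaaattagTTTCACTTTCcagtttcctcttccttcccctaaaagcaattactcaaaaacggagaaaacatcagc
IFIT5 (chr10:89414544-89414573, plus strand, bases -24 to 6): tttagTTTCGATTTCttaagTTTCAGTTTC
IFITM1 (chr11:314014-314043, plus strand, bases -26 to 4): agagaaatacacacttctgaGAAACTGAAA
IFITM3 (chr11:320861-321020, minus strand, bases -160 to -1): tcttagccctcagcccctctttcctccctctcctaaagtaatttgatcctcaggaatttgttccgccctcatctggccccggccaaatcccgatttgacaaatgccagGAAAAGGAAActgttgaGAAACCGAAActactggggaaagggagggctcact
IFIT1B (chr10:89377896-89378055, plus strand, bases -160 to -1): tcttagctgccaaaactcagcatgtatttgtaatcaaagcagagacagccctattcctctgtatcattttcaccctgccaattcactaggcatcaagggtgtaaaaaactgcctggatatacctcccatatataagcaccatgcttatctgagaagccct

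The matches lay close to the start in IFIT5 (first bases at -45, -19 and -4) and IFITM1 (-40 and -6), and farther upstream in IFIT1 (-116 and -103) and in the IFIT3 promoter shown (-156 and -122). IFITM3 was between them, with matches at -52 and -35. In the IFIT genes all the matches shown read on the opposite strand of the gene, while in IFITM1 and IFITM3 they read on the gene's own strand. The interferon gamma-activated site (GAS, TTCNNNGAA), present in 7.66% of all promoters, occurred among the members only in IFITM1, where it begins at -12 and overlaps the nearer ISRE match. The AP-1 motif TGANTCA, present in 7.71% of all promoters, occurred among the members only in IFIT5, beginning at base 22 after the start. A match is a run of letters and was not measured as a bound site.

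Libraries held between 29699741 and 63613710 estimated counts, with BRG1 sample 3 the shallowest. SMARCA4, the transfected gene, was at 1439, 1675 and 1537 normalised counts in Control samples 1 to 3 and at 108655, 79075 and 78589 in BRG1 samples 1 to 3, plasmid transcripts included. SMARCA2, the other SWI/SNF ATPase gene, was low in both groups, at 3.61 to 23.3 and at 6.34 to 35.7 normalised counts. All values below are estimated counts divided by DESeq2 size factors (normalised counts) unless a length scale is named.

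IFIT1 had the highest level of the members in BRG1 samples. It was at 824, 759 and 1185 normalised counts in Control samples 1 to 3 and at 27244, 25385 and 32066 in BRG1 samples 1 to 3. The groups were far apart, and the sample numbered 3 was the highest in each. The log2 fold change, fitted over all 6 samples and given with its standard error (SE), was 4.93 ± 0.22, and within replicate numbers the fold was 33.1, 33.5 and 27.1.

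IFIT2 was at 246, 216 and 218 normalised counts in Control and at 5859, 4212 and 3936 in BRG1 samples. Control samples were nearly level, and BRG1 sample 1 stood above the other two. The log2 fold change was 4.37 ± 0.21. (SE)

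IFIT3 had the largest fold of the IFIT genes. Its normalised counts were 92.4, 37.3 and 43.3 in Control and 11014, 7363 and 4300 in BRG1 samples. The highest BRG1 sample exceeded the lowest 2.56-fold, and among Control samples the ratio was 2.48, but no BRG1 sample came near a Control sample. The log2 fold change was 7.04 ± 0.41 (SE), and the fold within replicate numbers was 119, 197 and 99.3.

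IFIT5 moved least. It was at 941, 894 and 1025 normalised counts in Control and at 3862, 4608 and 4363 in BRG1 samples. Both groups were tight, with the highest over the lowest sample at 1.15 in Control and 1.19 in BRG1. The log2 fold change was 2.16 ± 0.14. (SE)

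IFIT1B, the closest relative of IFIT1, was not detected in Control, with 0 counts in each of the 3 samples. BRG1 samples 1 to 3 held 1.99, 3.00 and 0 estimated counts before normalisation. Both groups were at or under the floor of 3 counts, so no fold is given.

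IFITM1 was close to absent in Control and abundant in BRG1 samples. Its normalised counts were 1.22, 2.37 and 0 in Control samples 1 to 3 and 2616, 1657 and 779 in BRG1 samples 1 to 3. Every Control sample held fewer than 3 counts, so the fold is a lower bound. The mean of BRG1 samples was at least 535-fold higher, against 3 counts per Control library. BRG1 sample 1 exceeded BRG1 sample 3 by 3.36-fold, the widest spread of the 7 detected members.

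IFITM2 was at 0, 1.01 and 0.649 normalised counts in Control and at 99.8, 66.6 and 41.8 in BRG1 samples. It was the weakest of the detected members in BRG1 samples. Its mean there was at least 22.0-fold higher, again against a floor of 3 counts per Control library.

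IFITM3 was at 8.12, 4.53 and 5.10 normalised counts in Control and at 693, 414 and 271 in BRG1 samples. The Control values rest on 3.87 to 6.74 estimated counts per library. The log2 fold change was 6.24 ± 0.52. (SE) The order of BRG1 samples was that of IFITM1 and IFITM2, with sample 1 highest and sample 3 lowest.

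**Figure D1:**
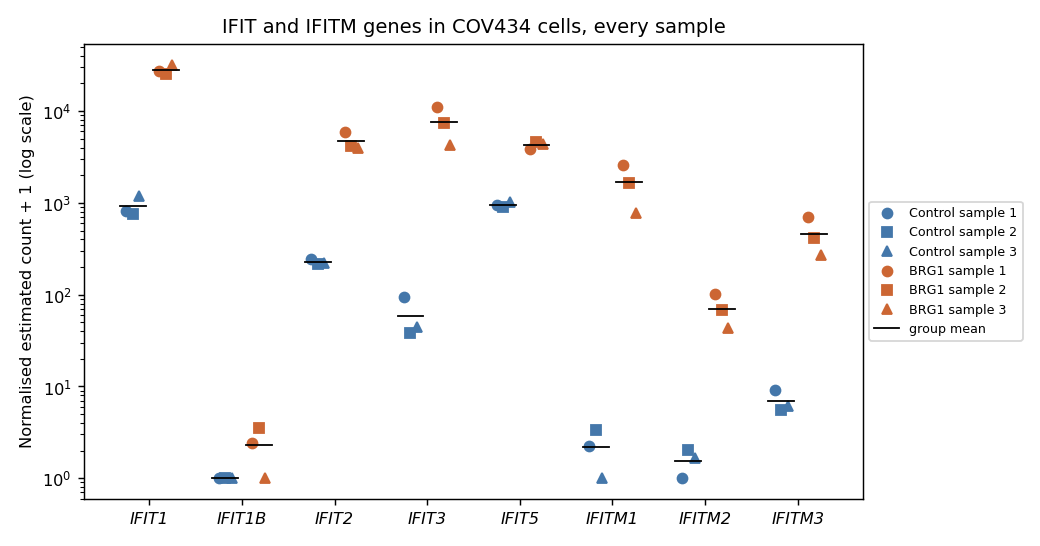
Normalised estimated counts plus 1 (log scale) of the 8 members in each of 3 Control samples (blue) and 3 BRG1 samples (orange), with the marker shape giving the replicate number and a line at the group mean. IFIT1 reaches 32066 in BRG1 sample 3, and IFITM1 goes from at most 2.37 in Control to between 779 and 2616 in BRG1 samples.

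DESeq2 called 7 of the 8 members higher at an adjusted p under 0.05, where 11.0% of the 15991 genes with an adjusted p were called higher and 1.84% lower. In the same 7 members every BRG1 sample was above every Control sample, which held for 16.8% of those genes. edgeR also called 7 members higher (9.57% of 14246 genes) and so did DESeq2 with the replicate number as a block (13.4% of 15640 genes). IFIT1B had no adjusted p. Since the members were selected on this contrast, nothing is read from these counts. Among the 1764 genes called higher, 143 had a larger fitted log2 fold change than IFIT3, 477 than IFIT1 and 1073 than IFIT5.

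The members did not vary alike among BRG1 samples. IFIT2, IFIT3, IFITM1, IFITM2 and IFITM3 were highest in BRG1 sample 1 and lowest in BRG1 sample 3, an order shared by 68.3% of all 1764 genes called higher. SMARCA4 followed that order too, with little between samples 2 and 3. IFIT1 was highest in BRG1 sample 3 and IFIT5 in BRG1 sample 2. The ratio of the highest to the lowest BRG1 sample was 1.26 for IFIT1 and 1.49 for IFIT2, and it was 2.56 for IFITM3 and 2.39 for IFITM2, beside a median of 2.11 over the genes called higher. The part of SMARCA4 level or of library depth in this order was not tested.

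Levels were compared between genes per kilobase of the canonical transcript. Its length was 611 to 1006 bases for the IFITM genes and 1972 to 4302 bases for the IFIT genes. The mix of isoforms and the length of sequenced fragments were not allowed for. Orders of IFIT against IFITM genes therefore hold on this scale only. In Control, IFIT5 (237 ± 16.4 normalised counts per kb, SD, n = 3) and IFIT1 (214 ± 53.4) came first and overlapped. IFIT2 followed at 66.8 ± 4.87, IFIT3 at 24.1 ± 12.7 and IFITM3 at 9.69 ± 3.15 per kb, each without overlap with the next. IFITM1, IFITM2 and IFIT1B were at the floor. Of the 18214 genes with a length, 58.2% had a lower Control level per kb than IFIT1.

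In BRG1 samples the order was different. IFIT1 led at 6562 ± 802 normalised counts per kb (SD, n = 3), above 97.7% of the genes with a length. IFIT3 (3163 ± 1406 per kb) and IFITM1 (2521 ± 1376 per kb) came next with overlapping ranges, although on this scale IFIT3 was the higher in each sample. IFIT2 at 1376 ± 307 per kb overlapped with IFITM1. IFIT5 at 1062 ± 94.4 and IFITM3 at 752 ± 352 per kb also overlapped, and IFITM2 was the lowest at 69.0 ± 28.9.

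The composition of the IFIT family differed between groups. Of the summed IFIT level per kb, IFIT5 made up 41.5% to 46.5% in Control samples and 7.03% to 10.1% in BRG1 samples. IFIT3 went from between 2.96% and 7.21% to between 15.7% and 33.8%, and IFIT1 from between 35.7% and 45.0% to between 46.5% and 64.8%. IFIT2 held a like share in both groups, 10.5% to 13.5% and 10.1% to 12.7%. IFITM1 made up 70.6% to 76.9% of the IFITM level per kb in BRG1 samples, IFITM3 21.0% to 26.8% and IFITM2 1.93% to 2.52%. The IFITM shares of Control samples rest on at most 7 counts per gene and are not compared.

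**Figure D2:**
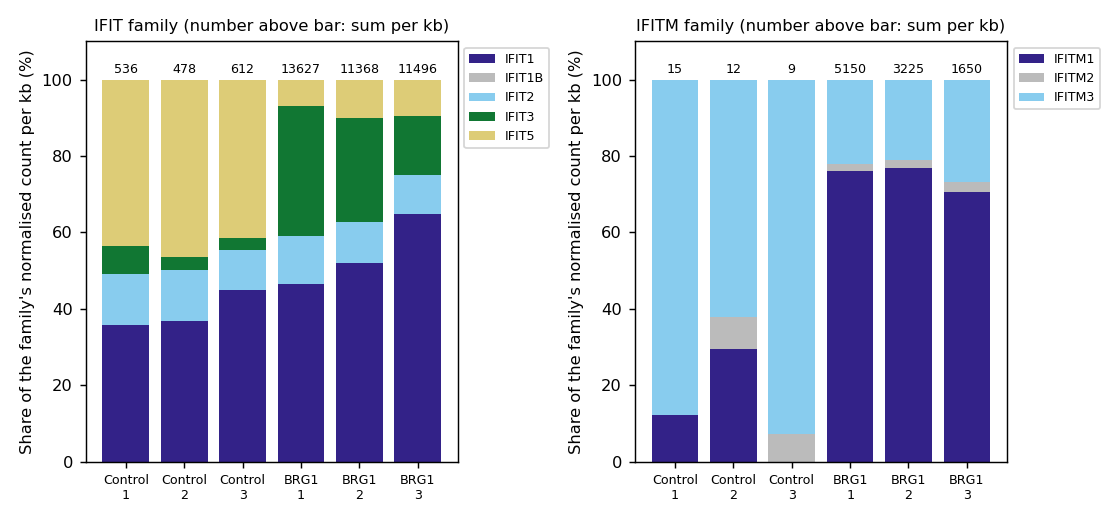
Share of each member in its family's summed normalised count per kb of canonical transcript (%, stacked bars) for each sample, with the sum per kb above the bar. IFIT5 holds at least 41.5% of the IFIT level in each Control sample and at most 10.1% in each BRG1 sample, and IFITM1 holds at least 70.6% of the IFITM level in each BRG1 sample. Control IFITM bars rest on very few counts.

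Reads that fit several genes were shared out by a model, which matters for the IFITM genes. Of the 31-base words in the transcripts of IFITM1, 26.2% also occur in transcripts of other members, and the shares were 23.7% for IFITM2 and 19.7% for IFITM3. How reads were split among these 3 genes is therefore uncertain. IFITM1 also overlaps a readthrough gene (21.1% of its exonic bases) and an antisense gene (10.6%). Genes on the opposite strand cover 16.3% of the exonic bases of IFITM3. The shares of words found in other genes of any kind were 44.5% for IFITM1, 30.1% for IFITM2 and 41.8% for IFITM3. The libraries did not keep strand. The IFIT genes were more distinct, with 1.84% of the words of IFIT1, 4.53% of those of IFIT1B and 0.068% of those of IFIT5 found in other members. In other genes of any kind the shares were 10.9% for IFIT2, 8.14% for IFIT3, 5.36% for IFIT1B and 3.49% for IFIT1. Exons of a same-strand transcript cover 12.1% of the exonic bases of IFIT2, and antisense exons of LIPA cover a part of IFIT2 (1.5%) and of IFIT3 (1.86%).

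The interferon pathway was examined next, from a list of 45 ligands, receptors, kinases, transcription factors, sensors, feedback regulators and cap-methylating enzymes, all of which were in the table. DESeq2 called 15 of the 39 with an adjusted p higher and 0 lower, and edgeR called 13 of the 32 that it tested higher, beside 11.0% and 9.57% of all genes tested. For the genes that both called, edgeR adjusted p values were larger than the DESeq2 values printed below. They were 6.31e-05 for IRF9, 0.00104 for STAT2, 0.00139 for IFNB1 and 4.03e-05 for DDX58. For USP18, TMEM173 and SOCS1 the edgeR adjusted p values were 4.88e-05, 0.0198 and 0.0195. The list was drawn up with interferon results of these samples known. With p unadjusted, 18 passed 0.05 as higher and 0 as lower in DESeq2. Leaving out the 6 genes with 3 counts or fewer in every sample or without any count, the median log2 fold change of the other 39 was 0.51, or 0.46 with genes at the Control floor set to their bound, beside -0.01 over all genes tested.

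Of 10 ligand genes, 5 had an adjusted p in DESeq2 and 1 was tested by edgeR, and 5 were at the floor in both groups. Only IFNB1, which encodes interferon beta, was called. It was at 0, 1.17 and 0 normalised counts in Control samples 1 to 3 and at 79.0, 61.4 and 31.3 in BRG1 samples 1 to 3. The fold of the BRG1 mean was at least 18.2 against the floor of 3 counts per Control library (DESeq2 adjusted p 6.8e-07). The order of BRG1 samples was that of the IFITM genes and of 68.3% of all 1764 genes called higher. IFNL1, a type III interferon, was at 0 in every Control sample and at 7.25, 5.81 and 2.98 in BRG1 samples, and its DESeq2 adjusted p was 0.102. IFNK was at 3.03 to 8.50 in Control and 0 to 4.98 in BRG1 samples.

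Neither interferon receptors nor kinases were called by DESeq2 without the block. IFNAR1, a subunit of the type I receptor, was at 2563 to 2973 normalised counts in Control and at 1884 to 3058 in BRG1 samples, with a log2 fold change of -0.07 ± 0.22. (SE) IFNAR2, its other subunit, had a log2 fold change of 0.09 ± 0.19. (SE) IFNGR2 of the interferon gamma receptor had a log2 fold change of 0.06 ± 0.21. (SE) The kinase TYK2 had a log2 fold change of -0.14 ± 0.14. (SE) JAK1 was at 4682, 3986 and 4382 normalised counts in Control and at 7624, 6201 and 4740 in BRG1 samples, all above the highest Control sample. Its difference of 0.51 on the log2 scale had a DESeq2 adjusted p of 0.101, which became 0.0045 with the replicate block. The DESeq2 adjusted p was 0.000922 without BRG1 replicate 3 and between 0.188 and 0.424 without any other single replicate.

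IRF9 and STAT2, which belong to the complex that binds the ISRE, were higher with BRG1, with smaller fitted folds than IFIT1, IFIT2 and IFIT3. IRF9 was at 1513, 1576 and 1560 normalised counts in Control samples and at 6484, 7583 and 6321 in BRG1 samples. STAT2 was at 3253, 3133 and 4256 in Control and at 8509, 8416 and 9812 in BRG1 samples. Both genes were well detected in Control, and the groups did not overlap. IRF9 rose by 2.13 on the log2 scale (standard error 0.14, DESeq2 adjusted p 1.1e-52) and STAT2 by 1.33 (standard error 0.18, DESeq2 adjusted p 2.8e-12).

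IRF2, which binds the same kind of element, had a log2 fold change of 0.51 that DESeq2 called (adjusted p 0.0264) and edgeR did not (adjusted p 0.108). Without BRG1 replicate 1 the DESeq2 call was kept, and it was lost without any other single replicate. IRF3, which drives IFNB1 after sensing of nucleic acid, had a log2 fold change of -0.06 ± 0.18. (SE) IRF1 depended on the replicate number. It was at 6400 and 5760 normalised counts in Control samples 1 and 2 and at 14244 and 16698 in the BRG1 samples of these numbers, but at 570 and 2233 in the samples numbered 3. Its difference of 1.38 on the log2 scale had a DESeq2 adjusted p of 0.586, or 1.1e-21 with the replicate block.

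Sensors of nucleic acid and their adaptors formed a single group of 11 genes. DESeq2 called 7 of them higher, and edgeR called 6 of the 9 that it tested. DDX58, which encodes the RNA sensor RIG-I, was at 595, 509 and 413 normalised counts in Control and at 7331, 9441 and 7231 in BRG1 samples (log2 fold change 3.99, standard error 0.20, DESeq2 adjusted p 3.9e-82). TLR3, an endosomal sensor of double-stranded RNA, rose by 4.67 on the log2 scale (standard error 0.51, DESeq2 adjusted p 1.45e-18). TMEM173, which encodes the adaptor STING, and the kinase gene IKBKE had 3 counts or fewer in every Control sample. Their BRG1 means were at least 8.77-fold and at least 5.22-fold higher (DESeq2 adjusted p 0.00141 and 0.0108). IKBKE was too low for the edgeR test, and without BRG1 replicate 1 both calls were lost (DESeq2 adjusted p 0.0954 and 0.109). The TMEM173 call was also lost without BRG1 replicate 2 (0.0618) and the IKBKE call without BRG1 replicate 3 (0.0698). The other called genes of this role, all sensors of RNA, were DHX58, IFIH1 and EIF2AK2, with log2 fold changes of 2.94, 2.22 and 1.75. MAVS and TBK1, which relay the RNA sensors' signal, had fitted log2 changes of 0.14 ± 0.18 and 0.06 ± 0.18 (SE).

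Of 4 feedback regulators, USP18 and SOCS1 were called. USP18, which blocks the type I receptor, went from 576, 490 and 424 normalised counts to 4835, 6468 and 5493 (log2 fold change 3.50, DESeq2 adjusted p 7.8e-71). SOCS1, an inhibitor of the JAK kinases, rose by 1.92 on the log2 scale (DESeq2 adjusted p 0.00276), and its call was lost without BRG1 replicate 1 (0.110) or 2 (0.0633). SOCS3 differed by 0.77 on the log2 scale (DESeq2 adjusted p 0.392, or 1.1e-05 with the block) and PIAS1 by 0.05. The enzymes that methylate caps were included because IFIT1 reads the state of the cap. CMTR1, which methylates the first transcribed nucleotide, went from 4057, 3689 and 3911 to 7371, 7853 and 7517 normalised counts (log2 fold change 0.96, standard error 0.11, DESeq2 adjusted p 1.1e-15). The log2 fold changes of CMTR2 and RNMT were 0.07 and -0.06.

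With the replicate block DESeq2 called 20 pathway genes higher. The 5 added genes were IFNGR1, JAK1, IRF1, TICAM1 and SOCS3, all with positive log2 fold changes in both fits, and edgeR with the block also called these 5.

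**Figure D3:**
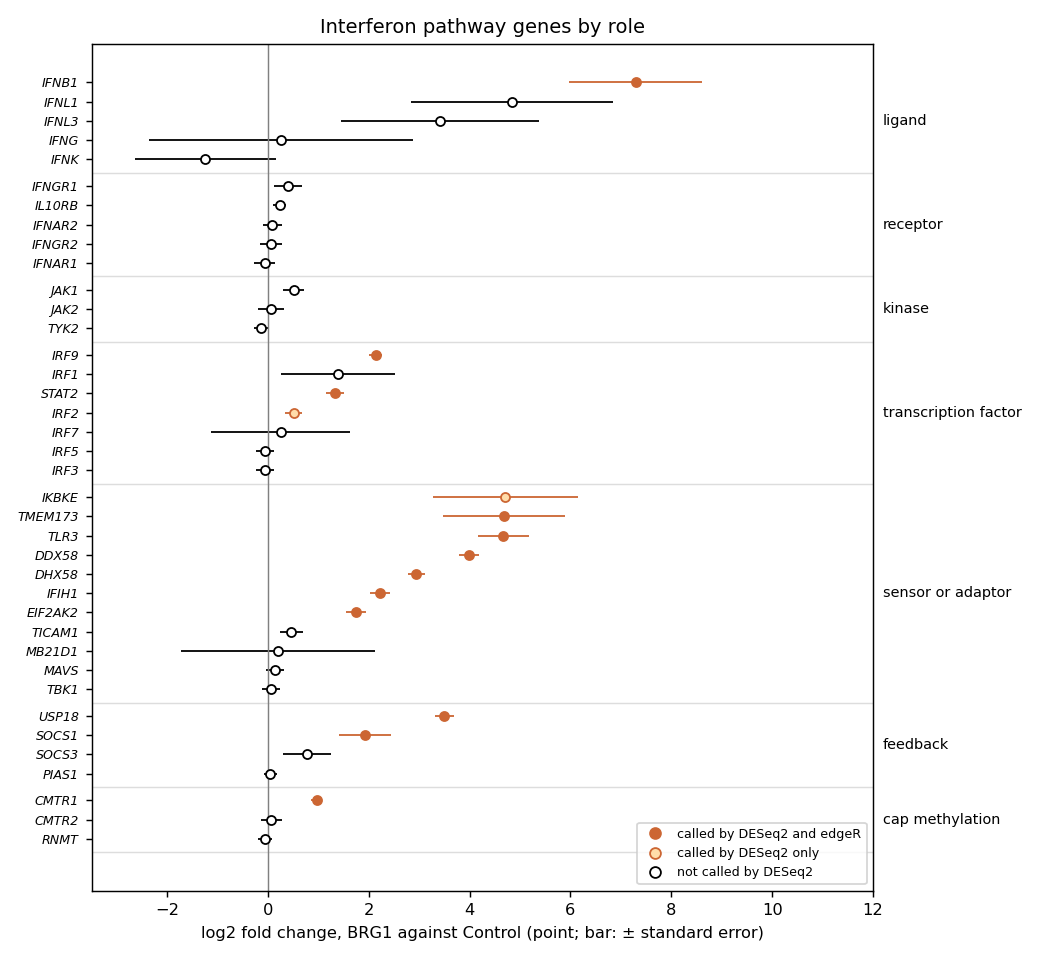
Log2 fold change of BRG1 against Control (point) with its standard error (bar) for the pathway genes shown, all over the floor of 3 counts in at least 1 sample, grouped by role, with the fill giving the calls. IFNB1 at 7.29, a fitted value against a group at the floor, lies far from the receptors, which run from -0.07 to 0.39. IKBKE was not tested by edgeR.

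Genes beside the members on the chromosome were examined to see whether the difference extended over the clusters. DESeq2 called 1 of 14 neighbours higher and 0 lower, beside 11.0% and 1.84% of all genes tested, and edgeR called the same gene among the 10 that it tested. With p unadjusted, DESeq2 passed 2 as higher and 0 as lower at 0.05. Over the 14 genes listed as neighbours the median log2 fold change was 0.16. They include IFITM10, which is not beside the members but farther along chromosome 11 (1732406 to 1750595). The called gene was SLC16A12, which encodes a transporter and lies next to IFIT5 (chromosome 10, 89430299 to 89556641). It was at 1.21, 0 and 0 normalised counts in Control and at 75.9, 37.4 and 29.8 in BRG1 samples. The BRG1 mean was at least 15.2-fold higher against the floor of 3 counts per Control library (DESeq2 adjusted p 3.4e-06, edgeR adjusted p 0.00212).

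LIPA, which encodes lysosomal acid lipase and whose longest annotated form begins on the opposite strand beside the start of IFIT5, was at 2514, 2444 and 3159 normalised counts in Control and at 3632, 3256 and 3620 in BRG1 samples. Its log2 fold change was 0.37 ± 0.16 (SE) (DESeq2 adjusted p 0.132). The DESeq2 adjusted p became 0.00856 with the replicate block and 0.0129 without Control replicate 3. Without any other single replicate it was between 0.214 and 0.486. CH25H, on the far side of LIPA, had a log2 fold change of 0.20 ± 0.52 (SE) at 17.0 to 30.5 normalised counts. On the other side of the cluster PANK1 and KIF20B had log2 fold changes of -0.20 and -0.08.

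At the IFITM cluster none of the 8 neighbours was called by DESeq2, none of the 4 that edgeR tested was called by edgeR, and none of the 8 reached an unadjusted p under 0.05 with DESeq2. NLRP6, PGGHG (in the table under its older symbol ATHL1) and IFITM5 lie on the IFITM2 side. Their log2 fold changes were 0.25 (standard error 1.18), -0.0044 (standard error 0.18) and 0.41 (standard error 1.47). NLRP6 was at only 4.70 to 7.47 normalised counts in Control and 1.89 to 15.8 in BRG1 samples. IFITM5, a family relative known from bone, stood next to IFITM2 but was at only 0 to 6.08 normalised counts in Control and 1.49 to 7.99 in BRG1 samples. On the IFITM3 side, B4GALNT4 had a log2 fold change of -0.12, PKP3 of 1.23 (standard error 0.83), SIGIRR of 0.12, ANO9 of 0.54 (standard error 1.34) and PTDSS2 of -0.17. IFITM10, a distant relative on the same chromosome, was at 105 to 194 in Control and 60.5 to 180 in BRG1 samples, with a log2 fold change of -0.29 ± 0.44. (SE)

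**Figure D4:**
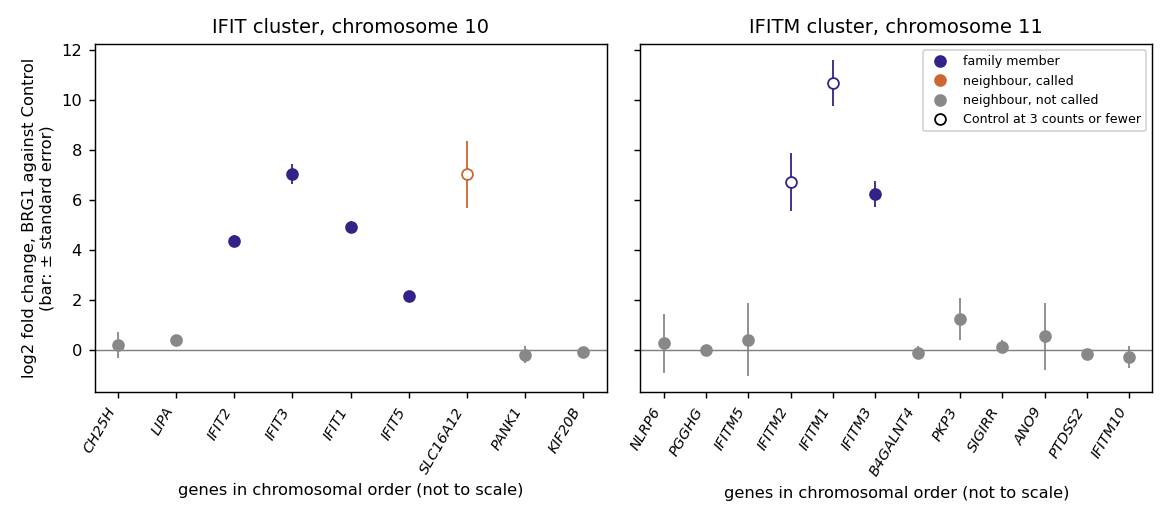
Log2 fold change of BRG1 against Control with its standard error for the members and their neighbours in chromosomal order, not to scale. IFITM10 lies farther along chromosome 11, and IFIT1B, at the floor in both groups, is left out. Open points are fitted values against a Control group with 3 counts or fewer in every sample. Members run from 2.16 for IFIT5 to 10.68 for IFITM1, and of the neighbours only SLC16A12 was called.

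Markers of other cells were measured because immune cells could bring interferon-response RNA. Of 12 immune markers, 5 had 3 counts or fewer in every sample, among them CD3E, CD2, FCGR3A and CLEC4C. The list summed to between 363 and 703 normalised counts in Control and between 404 and 810 in BRG1 samples, and most of it was PTPRC, at 336 to 670 and 360 to 722. Only LYZ was called higher, from 0 to 2.09 up to 13.5 to 22.7 normalised counts (DESeq2 adjusted p 0.00261). Of 5 stromal markers none was called, with sums of 5235 to 8744 and 4165 to 9303. Of 4 endothelial markers VWF and CDH5 were called higher, and the rest were not called. The list summed to between 1320 and 2181 in Control and between 5328 and 5999 in BRG1 samples. Most of that difference was VWF, at 26.1 to 82.0 normalised counts in Control and 3224 to 3656 in BRG1 samples. The part of the endothelial genes and LYZ in the member values was not tested.

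The genes whose profile over the 6 samples lay nearest to the mean profile of the 6 members with a mean of at least 100 normalised counts were CYP4B1, SMARCA4, MMP2, PALM2-AKAP2 and SLC7A7. The measure was the Euclidean distance of centred log2(normalised count + 1) values among 11679 genes, and the 5 distances were 0.35, 0.53, 0.54, 0.55 and 0.59. It depends mostly on the size of the difference between groups, on which the members were selected, and is a description only. The mean was taken over both groups, so IFIT3, IFITM1 and IFITM3 passed only through BRG1 samples. So did the near genes other than SMARCA4. Of the members themselves IFITM3 lay nearest, at 0.64, and IFIT5 and IFITM1 farthest, at 4.37 and 4.98.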

How the data were processed

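RNA of 3 Control and 3 BRG1 samples was sequenced by the authors from unstranded TruSeq mRNA libraries (500 ng of RNA, read pairs of 78 bases). Per the study's methods and the submitters' processing notes, reads were checked with FastQC 0.11.5, aligned to hg38 with STAR 2.5.3a and the GENCODE annotation, quantified with Salmon 0.8.2 and summed to genes by tximport. What the authors deposited is an estimated count for each gene symbol, derived from TPM scaled by transcript length and library size (lengthScaledTPM). Reads shared by similar or overlapping genes are divided by Salmon's model, and without strand an antisense transcript adds to a gene's value.

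Estimated counts were rounded before fitting. Of 19899 genes, 18096 had a rounded count in any sample. BRG1 was compared with Control by the Wald test of DESeq2 (version 1.42.0, R 4.3.3), named in the study's methods, with median-ratio size factors, no covariate and independent filtering, and a gene was called at a Benjamini-Hochberg adjusted p under 0.05 over all genes. Genes that DESeq2 gave no adjusted p kept none. Alternatives were edgeR 4.0.16 (quasi-likelihood, TMM), a replicate block, TMM size factors, a filter of 10 counts in 3 samples, and leaving out each replicate. When tested on simulated data, the share of false calls exceeded the threshold by much more for DESeq2 than for edgeR, so edgeR counts stand beside those of DESeq2. The simulated data had fewer changed genes and no pairing of replicates, so they do not give the share of false calls in the real data.

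A group with 3 counts or fewer in each sample was at the floor. Folds against it set the mean of BRG1 samples over that floor and are bounds that cover counting error only. Counting precision is set by totals of 29699741 to 63613710 estimated counts per sample. No 2 samples of a group shared an identical non-zero count. Same-numbered samples deviated together, with correlations of 0.52, 0.52 and 0.61 across 11685 genes (minimum for pairing 0.1), so the replicate numbers pair the samples and blocked values are given where they change a call.

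Gene positions, transcript lengths and shared 31-base words came from GENCODE release 44 on the same build, not the authors' release. The members and lists were chosen with earlier results of these data known. Named genes were the members, SMARCA4, SMARCA2, core interferon ligands, receptors, kinases and factors, up to 4 called and 2 uncalled genes per pathway role, all neighbours and the 5 nearest profiles. The markers named beside these, the other called sensors and the genes called only with the block were named after their values were seen. A pathway gene and a marker that belong to the lists and their counts are not reported here by name.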

Additional observations from a re-analysis of the deposited data

How the results depend on the processing

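DESeq2 called 294 genes lower and edgeR 146, and adding the replicate block raised these to 1035 and 870. Leaving out BRG1 replicate 2 gave the fewest, 117, and leaving out BRG1 replicate 3 the most, 596. With the replicate block the locus neighbours called higher went from 1 to 2 in DESeq2 and in edgeR, the added gene being LIPA, and they ran from 1 to 2 with single replicates left out. The block changed the calls of IFNGR1, JAK1, IRF1, TICAM1, SOCS3 and LIPA in the pathway and neighbour lists and no other DESeq2 call there. The members called higher numbered 7 and the members called lower 0 under each of these alternatives, which says nothing of stability since the members were selected on this contrast. IFIT1 ran from 4.81 to 5.15 on the log2 scale over all fits, IFIT3 from 6.67 to 7.54, IFIT5 from 2.11 to 2.23 and IFITM3 from 5.82 to 6.52. With Control at the floor, the fitted value of IFITM2 ran from 6.23 to 7.21 and that of IFITM1 (10.68) from 9.88 without Control replicate 3 to 11.78 without Control replicate 2. The pathway genes called higher ran from 12 to 15 with single replicates left out. Low counts limit IFIT1B, IFITM2, IFNL1, TMEM173 and IKBKE, and in Control also IFITM1, IFITM3, IFNB1 and SLC16A12.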
